A study of Mus musculus with 24 samples.

Results

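The transcript of the transcription factor NRF2 and of 8 genes that it is known to activate were followed in hepatocytes of aged mice. They are Nfe2l2, which encodes NRF2 itself, Nqo1, Gclc, Gclm, Txnrd1, Srxn1, Hmox1, Slc7a11 and Osgin1. They were chosen by symbol, and all 9 were found among the 55421 genes of the deposited tables. All 9 were also among the 13847 genes that had enough counts to be tested.

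There were 24 animals. All were C57BL/6J mice, and the methods give their sex as male. From 4 months of age they were fed a normal diet that held either vehicle (the eudragit coating alone) or rapamycin encapsulated in it (eRapa, 42 ppm), an inhibitor of the kinase mTOR. At 18 months, 8 animals (ND+veh) were left on the normal diet and vehicle, while 7 (HFD+veh) changed to a high-fat diet with vehicle for 9 weeks. For the same time 9 animals (HFD+eRapa) were given the high-fat diet together with eRapa. Fat supplied 60% of the calories of the high-fat diet. Both high-fat groups therefore differ from ND+veh in diet, and HFD+eRapa differs from HFD+veh in a drug that had been given since young adulthood. Hepatocytes were isolated by liver perfusion in 2 steps, and polyA RNA was sequenced from each animal. All libraries carry the same batch label.

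NRF2 is a transcription factor that is made continuously and, in unstressed cells, is captured by the adaptor KEAP1 and sent to the proteasome. When reactive electrophiles or oxidants modify KEAP1, NRF2 escapes, pairs with a small MAF protein and binds antioxidant response elements near its target genes. The targets make glutathione, recycle thioredoxin, reduce quinones, break down haem and conjugate foreign compounds. In liver the pathway is known for defence against reactive drug metabolites. Because NRF2 is controlled mainly through the stability of the protein, its transcript is not a measure of its activity.

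Antioxidant response elements are often written with the core letters TGACNNNGC, which not every element need carry. These were searched on both strands in RefSeq promoter sequences of GRCm38.p6, each reaching from 250 bases before to 50 bases after an annotated start, and 12.4% of all 32851 such windows held them. Of the 9 members, 7 had an entry with 9 windows among them, and 4 of these windows, in Nfe2l2, Gclm, Txnrd1 and Srxn1, held a match. The match in Srxn1 (chr2:152105552-152105560, opposite strand) lies 28 bases after the start. Gclc and Hmox1 had no entry. The looser letters TGANNNNGC, which include every match to the first motif, were in 41.3% of all windows, in 7 of the 9 member windows and in every member with an entry other than Nqo1. A longer run, TGAGTCAGC, which is 1 spelling of the looser motif and was added after the sequences had been read, was in 0.414% of all windows and in those of Srxn1 and Osgin1. A match describes letters in the window and does not show that NRF2 binds there.

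The upstream stretches of a pair of members are shown whole, because Nqo1 and Srxn1 had the most similar pattern of any pair of members over all 24 libraries (Pearson r = 0.805) and differ in these letters. Without ND+veh replicate 4 the closest pair was Nqo1 with Hmox1 (r = 0.815, against 0.799 for Nqo1 with Srxn1), and Hmox1 had no promoter entry. They lie at chr2:152105274-152105513 (plus strand, Srxn1) and chr8:107403216-107403455 (minus strand, Nqo1), are given 5′ to 3′ on the strand of the gene, and end 10 bases short of the start. Capitals mark matches to TGANNNNGC on either strand, of which Srxn1 has 3, the last being TGAGTCAGC at chr2:152105479-152105487, 45 bases before the start. None of the 3 matches TGACNNNGC, since the Srxn1 match to that motif lies after the start and beyond this stretch.
Srxn1: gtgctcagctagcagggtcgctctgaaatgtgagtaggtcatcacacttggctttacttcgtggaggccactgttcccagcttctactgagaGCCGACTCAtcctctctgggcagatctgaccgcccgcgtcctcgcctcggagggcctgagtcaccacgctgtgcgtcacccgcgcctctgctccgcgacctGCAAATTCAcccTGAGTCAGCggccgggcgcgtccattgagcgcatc
Nqo1: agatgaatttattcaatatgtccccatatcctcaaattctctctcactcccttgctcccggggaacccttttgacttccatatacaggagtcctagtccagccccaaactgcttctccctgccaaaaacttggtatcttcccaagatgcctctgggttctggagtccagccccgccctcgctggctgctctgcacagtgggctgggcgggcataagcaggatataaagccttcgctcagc

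The Nqo1 stretch has no match to any of the 3 motifs. Sequence outside these short windows was not searched, so this does not show that Nqo1 lacks an element. Short stretches of 30 bases show the matches in the other members. Capitals mark TGAGTCAGC, read on the opposite strand, in Osgin1 (chr8:119437048-119437056, 99 bases before the annotated start), and TGACNNNGC in Nfe2l2 (chr2:75704895-75704903, 240 bases before), in Gclm on the opposite strand (chr3:122245423-122245431, 134 bases before) and in 1 of the 3 Txnrd1 windows on the opposite strand (chr10:82859114-82859122, 92 bases before).
Osgin1: aggggcccctGCTGACTCAcgcttatgaaa
Nfe2l2: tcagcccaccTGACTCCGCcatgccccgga
Gclm: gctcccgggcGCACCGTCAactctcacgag
Txnrd1: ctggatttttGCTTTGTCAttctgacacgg

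Each library held 17.7 to 25.9 M counts (M, units of 1000000), and 9 of 10 hepatocyte markers were in the tables, with summed levels of 55949 to 172578 CPM (counts per M counts after TMM scaling). Libraries also differed in RNA of other liver cells. The summed level of 12 macrophage markers ran from 52.4 to 1569 CPM in ND+veh, from 198 to 5886 in HFD+veh and from 19.4 to 1230 in HFD+eRapa, with no marker at 0 in any group. With eRapa, 10 of the 12 were lower than in HFD+veh at an edgeR adjusted p under 0.05, as were 21.1% of all genes tested. All 8 endothelial and all 8 stellate cell markers were lower by that threshold as well, with median summed levels of 153 against 507 CPM and 49.2 against 165 CPM. So were 1 of 3 tested cholangiocyte, 2 of 3 neutrophil and 0 of 1 lymphocyte markers. Cholangiocyte markers had median sums of 5.74, 106 and 20.8 CPM in ND+veh, HFD+veh and HFD+eRapa, neutrophil markers of 1.12, 23.4 and 2.49 CPM and lymphocyte markers of 1.20, 10.4 and 1.80 CPM. In such bulk samples, fewer cells of a type and less RNA per cell cannot be told apart.

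One animal has to be named before the results. ND+veh replicate 4 had the highest level of all 24 libraries for 6 of the 9 members (Nqo1, Gclc, Txnrd1, Srxn1, Slc7a11 and Osgin1), where 6.93% of all genes tested were highest in that library. It stood apart in other measures as well. Its hepatocyte marker sum was 60324 CPM, against 113675 to 162924 CPM in the other 7 ND+veh animals, its cholangiocyte marker sum was 20.6 CPM against 4.92 to 8.40 CPM, and its TMM scaling factor was 1.30 against 0.933 to 1.08. Its sums for macrophage (487 CPM), endothelial, stellate, neutrophil and lymphocyte markers were within the range of the others. The part of these differences in the member levels was not tested. For the 9 members, values without this animal are given where the call or the direction in a contrast with ND+veh differs. For the further genes such values are given only in part.

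Genes are termed called when their edgeR p-value, adjusted over all genes tested by the Benjamini-Hochberg method, is under 0.05. Between HFD+veh and ND+veh, 0 members were called higher (16.0% of all genes tested were) and 1 was called lower (9.86% of all genes), Osgin1. At an unadjusted p under 0.05 there were 3 members in that contrast, the others being Nqo1 and Hmox1, both higher, and DESeq2 and limma voom each called 2, Nqo1 and Osgin1. Between HFD+eRapa and HFD+veh, 0 members were called higher (10.9% of all genes) and 3 were called lower (21.1% of all genes), Nqo1, Hmox1 and Slc7a11. No member was called between HFD+eRapa and ND+veh by edgeR, where 6.93% of all genes were higher and 6.54% lower, nor by DESeq2 or limma voom, and 1, Slc7a11, had an unadjusted p under 0.05. Its log2 fold change there was -2.58 (edgeR adjusted p = 0.148) with and -0.67 (edgeR adjusted p = 0.780) without ND+veh replicate 4, which held 211 of the 253 counts of its group. The ranges of CPM of the groups were separate for 0 members between HFD+veh and ND+veh (2.44% of all genes), for 1 member, Nqo1, between HFD+eRapa and HFD+veh (2.59% of all genes) and for 0 members between HFD+eRapa and ND+veh (3.37% of all genes). The HFD+veh animals stand in both of the first contrasts, so opposite signs in these are not independent of each other.

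**Figure D1:**
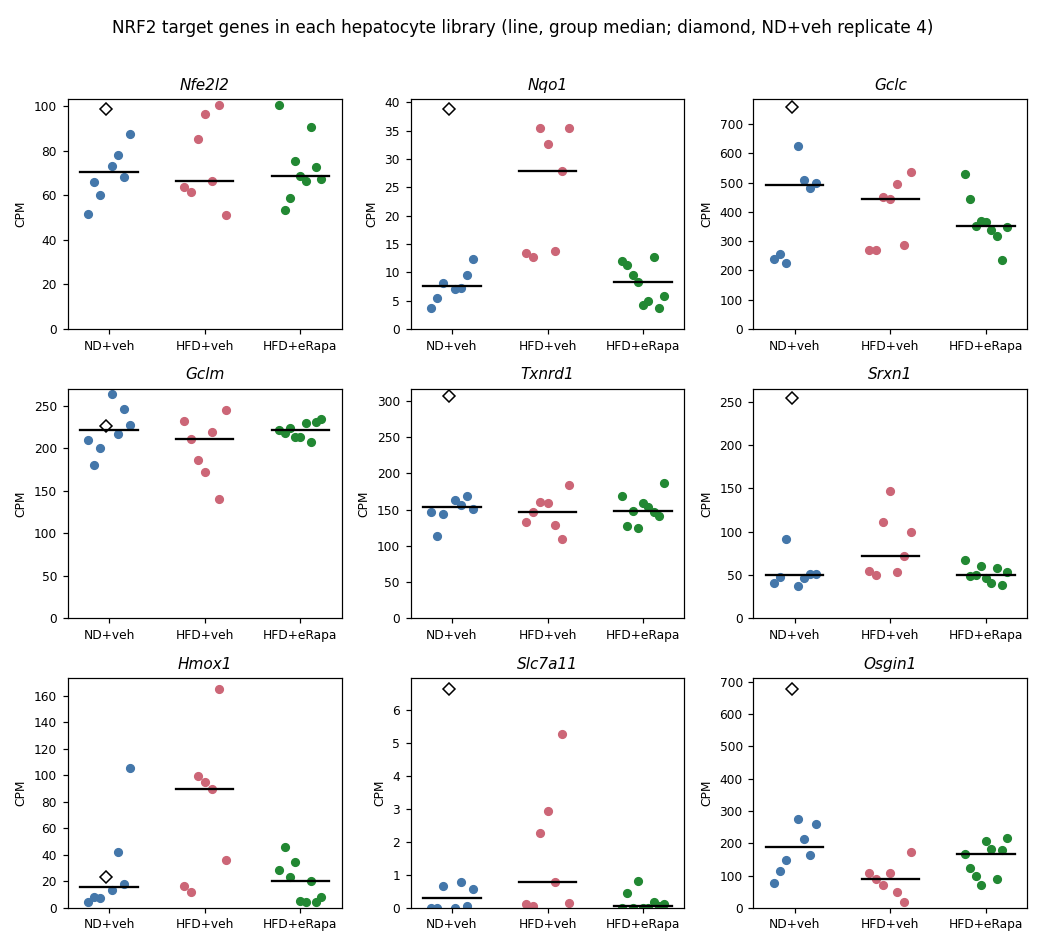
Level of each of the 9 NRF2 target genes, in CPM on linear axes, in the 8 ND+veh, 7 HFD+veh and 9 HFD+eRapa libraries. Points are animals, lines are group medians and the open diamond is ND+veh replicate 4, which is the highest of all libraries in 6 panels. In the Nqo1 panel all HFD+veh points lie above all HFD+eRapa points.

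Nfe2l2 (ENSMUSG00000015839.6, GRCm38 chromosome 2, 75675513 to 75704641, minus strand) did not separate the groups. Its lowest, median and highest levels were 51.6, 70.5 and 98.8 CPM in ND+veh, 51.1, 66.4 and 100.5 CPM in HFD+veh and 53.4, 68.6 and 100.7 CPM in HFD+eRapa. The 3 ranges lay almost on top of each other, and the highest library of all held 1.97 times the lowest. The log2 fold change was 0.04 between HFD+veh and ND+veh (95% confidence interval -0.27 to 0.35), -0.05 between HFD+eRapa and HFD+veh (-0.35 to 0.26) and 0.00 between HFD+eRapa and ND+veh (-0.30 to 0.29), with edgeR adjusted p-values of 0.869, 0.843 and 0.991. Without ND+veh replicate 4 the last value was 0.05 (edgeR adjusted p = 0.886). NRF2 protein was not measured.

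The partners of NRF2 were measured too, on a list of 10 regulators. Keap1, the adaptor that holds NRF2 back, Mafg, a small MAF partner, and Bach1, a repressor at the same elements, were not called in any contrast. Their log2 fold changes lay between -0.44 (Mafg, HFD+eRapa against ND+veh) and 0.19 (Keap1, HFD+eRapa against HFD+veh). Keap1 had median levels of 55.2, 48.0 and 53.2 CPM in ND+veh, HFD+veh and HFD+eRapa. Of the 10 regulators, 3 were called higher in HFD+eRapa against HFD+veh (10.9% of all genes), Cul3, Nfe2l1 and Maff. In HFD+veh against ND+veh 1 was called lower (9.86% of all genes), Maff. Cul3 was higher with eRapa than in HFD+veh by 0.24 on the log2 scale (edgeR adjusted p = 0.0191). Nfe2l1, a relative of NRF2 that drives proteasome genes, was higher with eRapa than in HFD+veh, by 0.34 on the log2 scale (SE 0.12, edgeR adjusted p = 0.0346). Maff, another small MAF gene, was the regulator with the largest called difference in both contrasts with HFD+veh. It had 1.87 to 9.23 CPM in ND+veh, 0.784 to 4.31 in HFD+veh and 1.45 to 8.596 in HFD+eRapa, so that the groups overlapped throughout. Its log2 fold change was -1.06 in HFD+veh against ND+veh (edgeR adjusted p = 0.0439) and 1.23 in HFD+eRapa against HFD+veh (adjusted p by edgeR = 0.0156). The first of these calls was lost without ND+veh replicate 3, 4, 6, 7 or 8, HFD+veh replicate 3, 6 or 7 or HFD+eRapa replicate 1 or 3, at -0.91 to -1.08 (edgeR adjusted p = 0.0505 to 0.0864). That of Nfe2l1 was lost without HFD+veh replicate 3, 4 or 6 or HFD+eRapa replicate 1, 3, 6 or 7, at 0.27 to 0.36 (edgeR adjusted p = 0.0510 to 0.0747).

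Glutathione is made in a first, rate-limiting step by glutamate-cysteine ligase, whose catalytic subunit is Gclc and whose modifier subunit is Gclm. Gclc (ENSMUSG00000032350.9, chromosome 9, 77754535 to 77794485, plus strand) had lowest, median and highest levels of 227, 490 and 758 CPM in ND+veh, 269, 444 and 535 CPM in HFD+veh and 234, 352 and 529.8 CPM in HFD+eRapa. Within ND+veh, replicates 1, 2 and 3 lay between 227 and 257 CPM and the other 5 between 481 and 758, so the spread inside this group was as wide as any gap between groups. No contrast was called, with log2 fold changes of -0.19, -0.10 and -0.29 and edgeR adjusted p-values of 0.579, 0.774 and 0.451 for HFD+veh against ND+veh, HFD+eRapa against HFD+veh and HFD+eRapa against ND+veh. Gclm (ENSMUSG00000028124.15, chromosome 3, 122245557 to 122270732, plus strand) was the steadiest member, its highest library holding 1.89 times its lowest.

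Gclm levels were 181, 221 and 264 CPM in ND+veh, 140, 211 and 246 CPM in HFD+veh and 207, 221 and 235 CPM in HFD+eRapa, again as lowest, median and highest. The HFD+eRapa animals sat close together in the middle of both other ranges. Its log2 fold changes were -0.14, 0.14 and 0.00 in the same order of contrasts, and edgeR called none (adjusted p = 0.320, 0.295 and 0.999). The last was -0.011 without ND+veh replicate 4 (edgeR adjusted p = 0.971). Exons of the predicted genes Gm17494 and Gm6061 overlap those of Gclm, and whether counting used strand is not stated, so a part of its counts cannot be assigned with certainty. Per length, in FPKM (fragments scaled by gene length and by the number mapped), the catalytic subunit stood at 0.558 to 1.47 times the modifier in ND+veh, 0.551 to 1.24 times in HFD+veh and 0.609 to 1.14 times in HFD+eRapa, with medians of 1.00, 1.14 and 0.819.

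Slc7a11 (ENSMUSG00000027737.10, chromosome 3, 49892526 to 50443614, minus strand) encodes the transporter that brings in cystine, the source of cysteine for glutathione. It was nearly silent in these cells, with a median of 0.0115 FPKM over all libraries. Raw counts ran from 0 to 211 in ND+veh, from 1 to 125 in HFD+veh and from 0 to 17 in HFD+eRapa, and 3 ND+veh and 4 HFD+eRapa libraries had no count at all. The HFD+veh levels had a median of 0.787 CPM and reached 2.27, 2.92 and 5.27 CPM in replicates 3, 4 and 6, while HFD+eRapa had a median of 0.0618 and a highest level of 0.818 CPM. The 12 macrophage markers summed to 3771, 2960 and 5886 CPM in HFD+veh replicates 3, 4 and 6 and 3288 in replicate 5. They summed to 198, 199 and 1082 CPM in replicates 1, 2 and 7, which had 0.104, 0.0441 and 0.157 CPM of Slc7a11. ND+veh replicate 4, with the most Slc7a11 (6.64 CPM), had 487 CPM of the markers. The part of RNA of other cells in the Slc7a11 difference was not tested. All 9 HFD+eRapa animals together gave 32 counts and the 7 HFD+veh animals 273. The fitted log2 fold change of HFD+eRapa against HFD+veh was -3.14 (SE 1.17, edgeR adjusted p = 0.0430), and the groups overlapped.

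The Slc7a11 call was lost without any 1 of HFD+veh replicates 3, 4 and 6 and of HFD+eRapa replicates 1, 3, 5, 6, 7, 8 and 9, with log2 fold changes of -2.43 to -3.15 and edgeR adjusted p-values of 0.0607 to 0.142, and with limma voom (-2.91, adjusted p = 0.0890). Against ND+veh, HFD+veh differed by 0.57 (edgeR adjusted p = 0.722), by 2.41 without ND+veh replicate 4 (edgeR adjusted p = 0.0872) and by -0.14 without HFD+veh replicate 6. Slc3a2, which encodes the protein that carries Slc7a11 and other amino acid transporters to the membrane, was well expressed. It had 36.4 to 61.3 CPM in ND+veh, 32.7 to 61.4 CPM in HFD+veh and 24.8 to 33.9 CPM in HFD+eRapa. Its log2 fold change was -0.71 in HFD+eRapa against HFD+veh (SE 0.14, edgeR adjusted p = 0.00116) and -0.78 against ND+veh (SE 0.14, edgeR adjusted p = 0.000395).

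Thioredoxin, the second thiol system of the cell, is kept reduced by thioredoxin reductase, the product of Txnrd1 (ENSMUSG00000020250.10, chromosome 10, 82833951 to 82897712, plus strand). Levels of Txnrd1 were 113, 154 and 307 CPM in ND+veh, 110, 146 and 184 CPM in HFD+veh and 125, 148 and 187 CPM in HFD+eRapa, as lowest, median and highest. Apart from the 307 CPM of ND+veh replicate 4, the 3 groups covered nearly the same range, and without that animal ND+veh ended at 169 CPM. The log2 fold changes of -0.21, 0.05 and -0.16, for HFD+veh against ND+veh, HFD+eRapa against HFD+veh and HFD+eRapa against ND+veh, were not called (edgeR adjusted p = 0.322, 0.835 and 0.528).

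Srxn1 (ENSMUSG00000032802.8, chromosome 2, 152105516 to 152111376, plus strand) encodes sulfiredoxin, which repairs overoxidised peroxiredoxins. In ND+veh its lowest, median and highest levels were 37.3, 49.7 and 254 CPM, in HFD+veh 50.3, 71.5 and 146 CPM and in HFD+eRapa 38.8, 50.02 and 67.5 CPM. Replicates 3, 4, 6 and 7 of HFD+veh, with 71.5 to 146 CPM, lay above every HFD+eRapa animal, and 5 of the 9 HFD+eRapa animals lay below the lowest HFD+veh animal. The difference of -0.70 on the log2 scale between HFD+eRapa and HFD+veh was not called (SE 0.34, edgeR adjusted p = 0.116), nor was that of 0.11 for HFD+veh against ND+veh (edgeR adjusted p = 0.845). Without ND+veh replicate 4 both passed, at -0.67 (edgeR adjusted p = 0.0188) and 0.63 (edgeR adjusted p = 0.0423). The first of these compares no ND+veh animal, and all 24 libraries shared 1 fit.

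Nqo1 (ENSMUSG00000003849.8, chromosome 8, 107388225 to 107403206, minus strand) encodes the NAD(P)H-dependent quinone reductase that is often read as the marker of NRF2 activity. It was the member with the clearest difference under eRapa. Lowest, median and highest levels were 12.7, 27.96 and 35.5 CPM in HFD+veh, 3.65, 8.22 and 12.69 CPM in HFD+eRapa and 3.69, 7.67 and 38.8 CPM in ND+veh. All 9 HFD+eRapa animals lay below all 7 HFD+veh animals, although the gap at the border, from 12.69 to 12.73 CPM, was narrow. HFD+veh itself was split, with replicates 1, 2 and 5 at 12.7 to 13.8 CPM and replicates 3, 4, 6 and 7 at 27.96 to 35.5 CPM. The log2 fold change of HFD+eRapa against HFD+veh was -1.60 (SE 0.41, edgeR adjusted p = 0.00535), or 0.330 times the level, and it was called in all 34 alternative analyses.

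The difference in Nqo1 between HFD+veh and ND+veh did not pass the test. All 7 HFD+veh animals were above the ND+veh median, and 7 of the 8 ND+veh animals had at most 12.3 CPM, below the lowest HFD+veh animal, while ND+veh replicate 4 had 38.8 CPM. With that animal the log2 fold change was 1.08 (SE 0.42, edgeR adjusted p = 0.0571) and without it 1.64 (edgeR adjusted p = 0.00156). Leaving out HFD+veh replicate 1 or 2 also brought it past the threshold, at 1.18 and 1.19 (edgeR adjusted p = 0.0398 and 0.0372), as did DESeq2 (1.101, adjusted p = 0.0255) and limma voom (1.25, adjusted p = 0.0268). Between HFD+eRapa and ND+veh the difference was -0.52 (edgeR adjusted p = 0.438), and 0.07 without ND+veh replicate 4.

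The 3 genes whose log2 CPM followed Nqo1 most closely over the 24 libraries, among 7830 candidates, were Ugdh (Pearson r = 0.951), Cmpk2 (r = 0.948) and Ly6e (r = 0.942), given as descriptions. Ugdh makes UDP-glucuronic acid for conjugation, and Cmpk2 and Ly6e are known as interferon-stimulated genes. Cmpk2 had 3.86 to 62.0 CPM in ND+veh, 12.8 to 74.6 CPM in HFD+veh and 3.59 to 12.8 CPM in HFD+eRapa. For Nfe2l2 the most similar genes were Tmem43 (r = 0.761), Rell1 (r = 0.750) and Asap1 (r = 0.732). All of these values share the 24 libraries and their scaling.

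Hmox1 (ENSMUSG00000005413.8, chromosome 8, 75093621 to 75100589, plus strand) encodes haem oxygenase 1, which breaks haem down to biliverdin, iron and carbon monoxide and is also abundant in liver macrophages, the cells that clear red blood cells. Its levels spread more widely than those of any other member bar Osgin1 and Slc7a11, from 4.58 to 165 CPM. Lowest, median and highest levels were 4.65, 15.7 and 106 CPM in ND+veh, 11.98, 89.3 and 165 CPM in HFD+veh and 4.58, 20.04 and 46.2 CPM in HFD+eRapa. HFD+veh replicates 3 to 6, with 89.3 to 165 CPM, lay above all HFD+eRapa animals, and replicates 1, 2 and 7, with 11.98 to 36.4 CPM, overlapped them. The log2 fold change of HFD+eRapa against HFD+veh was -1.92 (SE 0.65, edgeR adjusted p = 0.0280). That call was lost without HFD+veh replicate 3, 4 or 6, where the log2 fold change was -1.77, -1.79 and -1.52 (edgeR adjusted p = 0.0619, 0.0598 and 0.101). HFD+veh against ND+veh differed by 1.40 (edgeR adjusted p = 0.122), and by 2.14 without ND+veh replicate 8 (edgeR adjusted p = 0.0171).

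The macrophage markers moved with Hmox1. They were Adgre1, Clec4f, Cd5l, Vsig4, Marco, Csf1r, Cd68, C1qa, C1qb, C1qc, Timd4 and Lyz2. Of the 4, 5, 6 and 8 libraries with the most Hmox1, 3, 5, 6 and 8 were also among as many with the highest summed level of these markers. The top 5 by both were HFD+veh replicates 3, 4, 5 and 6 and ND+veh replicate 8, with 1569 to 5886 CPM of the markers. At the other end, 4 of the 4, 4 of the 5, 6 of the 6 and 7 of the 8 libraries with the least Hmox1 were among as many with the lowest sum. Between HFD+eRapa and HFD+veh the median log2 fold change of the 12 markers was -2.72. Between HFD+veh and ND+veh it was 2.09, with 4 of 12 called higher (16.0% of all genes tested). The part of macrophage RNA in the Hmox1 difference was not tested. For Nqo1, 2 of the 4, 3 of the 5, 4 of the 6 and 5 of the 8 highest libraries and 4 of the 4, 4 of the 5, 5 of the 6 and 6 of the 8 lowest were shared with the marker sum in the same way. ND+veh replicate 4 had the highest Nqo1 at 487 CPM of macrophage markers, and HFD+veh replicate 5 had 13.8 CPM of Nqo1 at 3288 CPM of the markers. The part of macrophage RNA in the Nqo1 difference was not tested either.

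**Figure D2:**
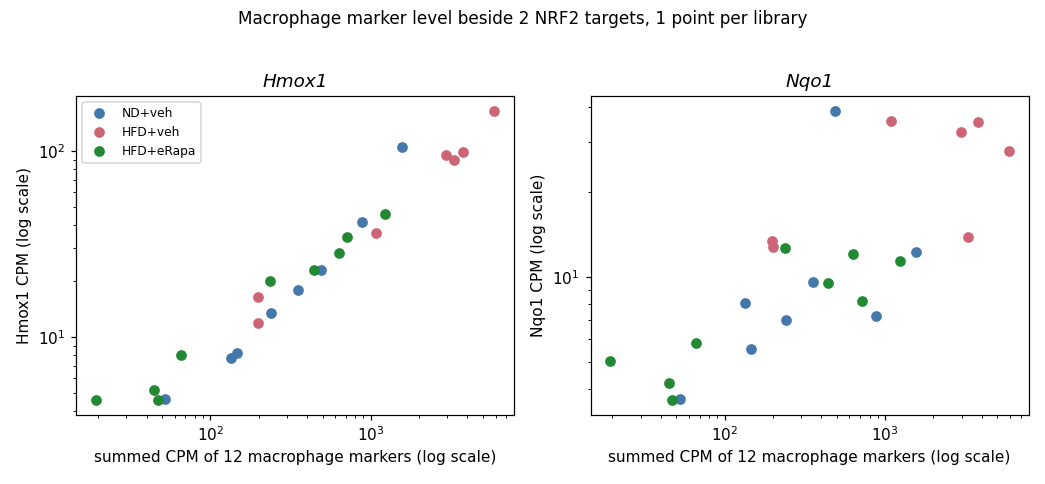
CPM of Hmox1 (left) and Nqo1 (right) against the summed CPM of 12 macrophage markers, on log axes, with 1 point per library coloured by group. Hmox1 climbs along the marker sum through all 3 groups, from 4.58 CPM to 165 CPM, while the Nqo1 points are low at low marker sums and spread more at high ones, and the highest, at 38.8 CPM, is an ND+veh library with 487 CPM of markers.

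Osgin1 (ENSMUSG00000074063.10, chromosome 8, 119434124 to 119446256, plus strand), an oxidative stress-induced growth inhibitor, was the 1 member called on the high-fat diet. Its lowest, median and highest levels were 76.7, 189 and 679 CPM in ND+veh, 16.8, 90.4 and 172 CPM in HFD+veh and 69.3, 168 and 215 CPM in HFD+eRapa. No HFD+veh animal reached the ND+veh median, and replicates 3, 5 and 6 of HFD+veh lay below every ND+veh animal. The log2 fold change of HFD+veh against ND+veh was -1.46 (SE 0.43, edgeR adjusted p = 0.0176). It was -1.06 without ND+veh replicate 4, which had 679 CPM against at most 276 CPM in the rest of its group (edgeR adjusted p = 0.0387), and -0.87 with HFD+veh replicate 6 left out as well (edgeR adjusted p = 0.0642). The difference of 0.75 with eRapa on the high-fat diet (edgeR adjusted p = 0.166) and that of -0.71 between HFD+eRapa and ND+veh (edgeR adjusted p = 0.261) were not called.

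**Figure D3:**
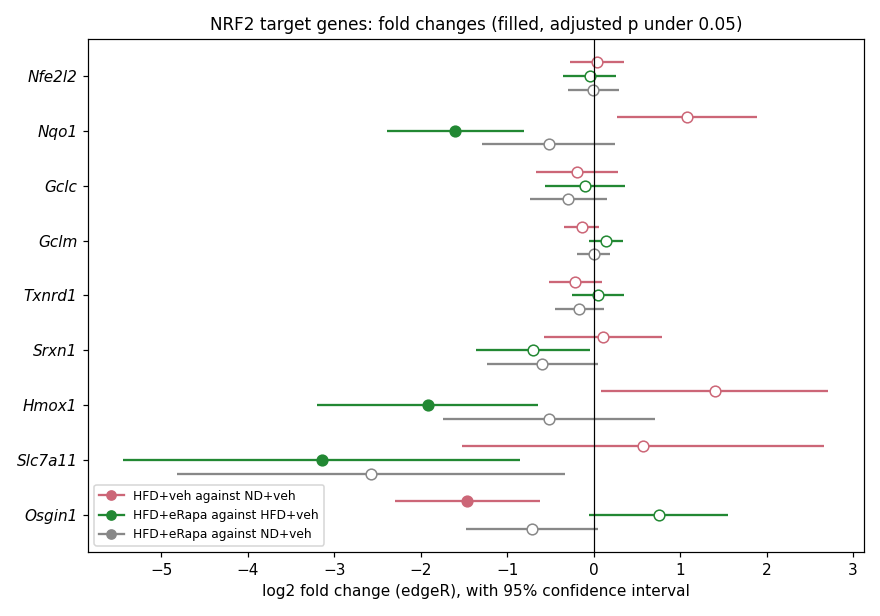
Log2 fold changes of the 9 genes from edgeR with 95% confidence intervals, for HFD+veh against ND+veh, HFD+eRapa against HFD+veh and HFD+eRapa against ND+veh; filled points have an adjusted p under 0.05. The filled points are Osgin1 at -1.46 for the diet and Nqo1, Hmox1 and Slc7a11 at -1.60, -1.92 and -3.14 for eRapa, while the intervals of Nfe2l2, Gclc, Gclm and Txnrd1 all hold 0.

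Set against each other per length, the median FPKM over all libraries placed Gclm first (116), followed by Gclc (97.8), Osgin1 (68.8), Txnrd1 (48.2), Nfe2l2 (26.6), Srxn1 (18.1), Hmox1 (14.4), Nqo1 (6.00) and Slc7a11 (0.0115). The order differed by group. Gclc was above Gclm by median in ND+veh (129 against 127 FPKM) and in HFD+veh (132 against 116 FPKM), and in HFD+veh Hmox1 (58.4 FPKM) was above Txnrd1 (50.1) and Osgin1 (46.6). The ranges of neighbours in this order overlapped, other than those of Nqo1 (2.01 to 32.4 FPKM) and Slc7a11 (0 to 0.879 FPKM). The members did not vary as 1 block. Over the 36 pairs of members, Pearson r of log2 CPM had a median of 0.404 and ran from -0.53 (Gclm with Slc7a11) to 0.805 (Nqo1 with Srxn1), as a description over 24 libraries that share their scaling. With group means subtracted the median was 0.415, and without ND+veh replicate 4 it was 0.279. Nqo1, Srxn1, Hmox1 and Slc7a11 were positively related to each other, with r of 0.758 for Nqo1 with Hmox1, 0.733 for Srxn1 with Slc7a11 and 0.412 for Srxn1 with Hmox1. Hmox1 and Osgin1 had an r of -0.38. In libraries with no Slc7a11 count, the log2 CPM of this gene is set by the prior count. Spearman values of Slc7a11 were -0.29 with Gclm and 0.67 with Srxn1.

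Beyond the 9 members, 66 further genes related to NRF2 or to antioxidant defence, not all of them known NRF2 targets, stood on 7 lists. Of the 66, 64 were tested. Of these, 4 were higher (6.25%, against 16.0% of all genes tested) and 5 lower (7.81%, against 9.86%) in HFD+veh against ND+veh. With eRapa, 8 were higher (12.5%, against 10.9% of all genes) and 16 lower (25%, against 21.1%) relative to HFD+veh, and 6 were higher (9.38%, against 6.93% of all genes) and 14 lower (21.9%, against 6.54%) relative to ND+veh. Without ND+veh replicate 4, 7 were higher and 10 lower in this last contrast (5.81% and 6.37% of all genes). With all libraries, the median log2 fold changes of the 64 genes, -0.01, 0.00 and -0.04, were near those of all genes tested, 0.05, -0.04 and -0.03. The lists differed among themselves, and detoxification held most of the genes that were lower with eRapa.

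Detoxification was represented by 19 genes, mostly glutathione S-transferases, which attach glutathione to electrophiles, and carbonyl reductases. In HFD+eRapa against HFD+veh 9 of the 19 were lower (21.1% of all genes) and 1 was higher (10.9%), with a median log2 fold change of -0.69. Among the 9, Cbr3 (-3.63, edgeR adjusted p = 0.0279) was not called without HFD+veh replicate 3 (-3.28, edgeR adjusted p = 0.0617) or 4. The call of Gstm4 (-0.62, edgeR adjusted p = 0.0337) was lost without HFD+veh replicate 3, 4, 6 or 7 or HFD+eRapa replicate 6, 8 or 9 (edgeR adjusted p = 0.0502 to 0.101). Gsta1 fell furthest, from 6.17 to 47.5 CPM in HFD+veh down to 0.211 to 4.801 CPM in HFD+eRapa, which is -4.15 on the log2 scale (SE 0.88, edgeR adjusted p = 0.00172), and the groups did not overlap. Gsta2 had 38.4 to 135 CPM in HFD+veh and 2.79 to 13.2 CPM in HFD+eRapa, also without overlap, which is -3.23 on the log2 scale (SE 0.38, edgeR adjusted p = 8.66e-06). In the diet contrast Gsta2 was the 1 detoxification gene called, at 1.58 (SE 0.37, edgeR adjusted p = 0.00527), where 16.0% of all genes were higher and 9.86% lower. Without ND+veh replicate 4 there were 6 higher and 1 lower (14.4% and 11.8% of all genes), among them Gsta1 at 3.59 (edgeR adjusted p = 0.00288), which stood at 2.22 with that animal (edgeR adjusted p = 0.0534). Cbr3 was another of the 6, at 4.37 (edgeR adjusted p = 0.00334), against 0.45 with that animal (edgeR adjusted p = 0.798). Gstm3 turned from -0.10 to 1.09 without it, called in neither case (edgeR adjusted p = 0.931 and 0.178). Gsta1 and Gsta2 are near-identical copies, and how counting divided their reads between them is uncertain. Against ND+veh, HFD+eRapa had 7 of the 19 lower and 1 higher (6.54% and 6.93% of all genes). Gstm3, which has close relatives as well, stood at -2.79 (SE 0.72, edgeR adjusted p = 0.0105). Without ND+veh replicate 4 it was -1.55 and not called (edgeR adjusted p = 0.0784), and 4 of the 19 were then lower and 1 higher (6.37% and 5.81% of all genes). In this contrast Cbr3 turned from -3.18 to 0.79 without that animal, called in neither case (edgeR adjusted p = 0.0837 and 0.647).

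NADPH, the electron donor of both thiol systems, is supplied in part by the pentose phosphate pathway, malic enzyme and isocitrate dehydrogenase. The list of 6 genes held Me1, Idh1 and, of the pentose phosphate pathway, G6pdx, Pgd, Taldo1 and Tkt. G6pdx, the entry enzyme of that pathway, had 3.91 to 20.9 CPM in ND+veh, 2.87 to 49.0 CPM in HFD+veh and 1.41 to 6.15 CPM in HFD+eRapa. Its log2 fold change was -2.49 in HFD+eRapa against HFD+veh (SE 0.49, edgeR adjusted p = 0.00106) and -1.66 against ND+veh (SE 0.47, edgeR adjusted p = 0.0199). In HFD+veh against ND+veh 1 gene of this list was called higher and 2 lower (16.0% and 9.86% of all genes). With eRapa on the high-fat diet 2 were called lower (21.1% of all genes). In HFD+eRapa against ND+veh 1 was called higher and 4 lower (6.93% and 6.54% of all genes). Me1, malic enzyme, was lower in HFD+veh than ND+veh at -0.99 on the log2 scale (SE 0.25, edgeR adjusted p = 0.00813). Calls of Taldo1 and Tkt in that contrast were less firm. Taldo1 (0.35, edgeR adjusted p = 0.0160) was not called without ND+veh replicate 1 (0.29, edgeR adjusted p = 0.0509). Tkt (-0.31, edgeR adjusted p = 0.0395) was not called with single libraries left out, such as ND+veh replicate 5 (-0.27, edgeR adjusted p = 0.0791). Against ND+veh, the HFD+eRapa call of Pgd (-0.46, edgeR adjusted p = 0.0344) was lost in the same way, as without ND+veh replicate 4 (-0.41, edgeR adjusted p = 0.0620).

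Of 7 tested glutathione genes, 2, Slc3a2 and Glrx, were lower with eRapa than in HFD+veh (21.1% of all genes). The call of Glrx, glutaredoxin (-0.45, edgeR adjusted p = 0.0426), was lost with single libraries left out, such as HFD+veh replicate 6 (-0.23, edgeR adjusted p = 0.233). Glrx was also the 1 gene called between HFD+veh and ND+veh, where it was higher (0.62, edgeR adjusted p = 0.0134, and 0.39, edgeR adjusted p = 0.0650, without HFD+veh replicate 6). In that contrast 16.0% of all genes were called higher. Of 10 thioredoxin and peroxiredoxin genes, none was called between HFD+veh and ND+veh by edgeR, DESeq2 or limma voom (2 had an unadjusted edgeR p under 0.05). By edgeR 16.0% of all genes were higher and 9.86% lower there. Without ND+veh replicate 4, 1 of the 10 was called lower (11.8% of all genes). It was Txnrd2, at -0.47 (edgeR adjusted p = 0.0256), against -0.37 with that animal (edgeR adjusted p = 0.0795). In each contrast of HFD+eRapa 2 were higher, where 10.9% of all genes were against HFD+veh and 6.93% against ND+veh. Prdx6, a peroxiredoxin that also repairs oxidised lipids, led in both, at 0.45 against HFD+veh (adjusted p by edgeR = 0.0122) and 0.55 against ND+veh (edgeR adjusted p = 0.00473). The other against HFD+veh, Txnrd2 (0.41, edgeR adjusted p = 0.0436), lost its call with single libraries left out, such as HFD+veh replicate 6 (0.31, edgeR adjusted p = 0.0913). Blvra, biliverdin reductase, which works downstream of haem oxygenase, was higher in HFD+veh than ND+veh by 1.16 (edgeR adjusted p = 0.00399) and lower with eRapa than in HFD+veh at -1.06 (edgeR adjusted p = 0.00372). Without HFD+veh replicate 6 these were 0.67 (edgeR adjusted p = 0.0104) and -0.58 (edgeR adjusted p = 0.0148), both still called.

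On the list of 6 iron and haem genes, 1 was called higher and 2 lower in HFD+veh against ND+veh (16.0% and 9.86% of all genes). The counts were the same in HFD+eRapa against HFD+veh (10.9% and 21.1% of all genes). Between HFD+eRapa and ND+veh edgeR called 0 (6.93% of all genes were higher and 6.54% lower). There 2 had an unadjusted p under 0.05, DESeq2 called 1 and limma voom 0. Without ND+veh replicate 4, edgeR called 1 of the 6 lower in that contrast (6.37% of all genes), Hmox2 (-0.41, edgeR adjusted p = 0.0178). Sod3, an extracellular superoxide dismutase, was lower in HFD+eRapa, at -2.25 against HFD+veh (adjusted p by edgeR = 0.000684) and at -1.65 against ND+veh (edgeR adjusted p = 0.00754). It stood on a list of 6 other antioxidant genes. Of the 6, 1 was called higher and 1 lower against HFD+veh (10.9% and 21.1% of all genes) and against ND+veh (6.93% and 6.54%). The higher ones were Sod1 (0.49, edgeR adjusted p = 0.0152) and Msra (0.55, edgeR adjusted p = 0.00592). None was called between HFD+veh and ND+veh by edgeR, DESeq2 or limma voom, where 16.0% of all genes were higher and 9.86% lower by edgeR. There 1 had an unadjusted edgeR p under 0.05. Without ND+veh replicate 4, Sod1 was called lower in that contrast (-0.48, edgeR adjusted p = 0.0171). Of the 10 regulators, 1 was called lower between HFD+eRapa and ND+veh (6.54% of all genes) and none higher (6.93%). It was Sqstm1, which encodes the KEAP1-binding autophagy adaptor p62, at -0.40 (SE 0.12, edgeR adjusted p = 0.0312). That call was lost without ND+veh replicate 4 (-0.33, edgeR adjusted p = 0.0738) or 6 or HFD+eRapa replicate 2, 5 or 6.

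**Figure D4:**
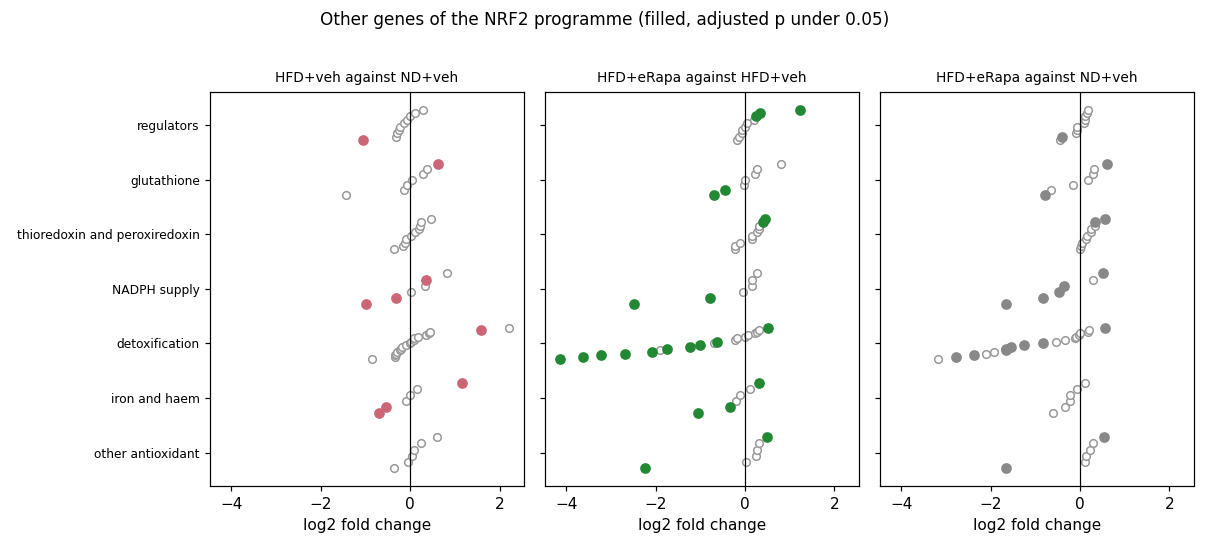
Log2 fold changes from edgeR of the 64 tested genes on the 7 further lists, not all of them known NRF2 targets, 1 panel per contrast, 1 point per gene, filled where the adjusted p is under 0.05. In the middle panel, HFD+eRapa against HFD+veh, 9 of 19 detoxification genes are filled to the left of 0, down to -4.15 for Gsta1.

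The animal that stood out for the members did so for some of the further lists. ND+veh replicate 4 held the highest level of all 24 libraries for 20 of the 64 genes, among them 12 of the 19 detoxification genes and 5 of the 10 regulators, against 0 of 10 thioredoxin and peroxiredoxin genes and 0 of 6 NADPH genes. Of all genes tested, 6.93% were highest in this library. Relative to the median of the other 7 ND+veh animals it had 5.33 times the Nqo1, 5.29 times the Srxn1, 4.12 times the Osgin1, 2.03 times the Txnrd1, 1.58 times the Gclc and 1.04 times the Gclm. It had 1210 CPM of Gstm3, where the other ND+veh animals had 39.5 to 187 CPM. Without it, 3 members (Nqo1, Srxn1 and Osgin1) and 17 of the 64 further genes passed for HFD+veh against ND+veh, in place of 1 and 9. The 17 are 26.6% of the further genes and the 9 were 14.1%, while the share of all genes tested that were called was 26.2% without the animal and 25.9% with it. Without HFD+veh replicate 2 the count of further genes was 14.

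**Figure D5:**
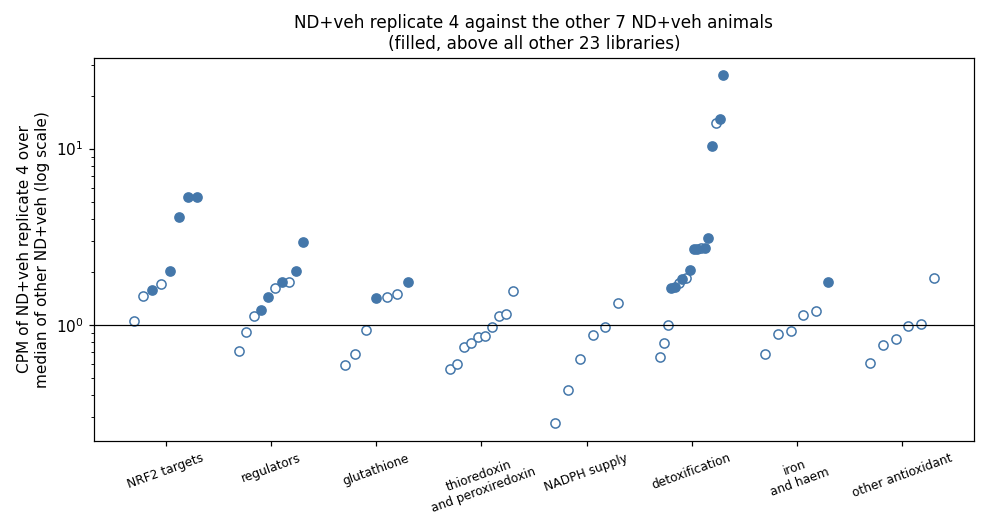
CPM of ND+veh replicate 4 divided by the median of the other 7 ND+veh animals, on a log axis, for the NRF2 targets and the 7 further lists, leaving out genes whose median in those 7 animals was at or below 1 CPM. Points are genes, filled where this library was above all other 23, and most detoxification genes lie above 1 while most NADPH and thioredoxin genes do not.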

How the data were processed

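RNA-seq of hepatocytes from 24 mice was used. The authors aligned the reads with STAR to mm10, filtered them with SAMtools and made the deposited counts, raw whole numbers of reads per gene, with HTSeq 0.11.2. Whether strand was used in counting is not stated in the sources used here. Cufflinks was run by the authors to give the deposited FPKM table, in which fragments are divided by gene length and by the number mapped. Gene coordinates came from Gencode M21 of GRCm38, the assembly also called mm10.

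Groups were taken from the labels of the samples. The members, the gene lists and the alternatives were chosen with earlier results of these data known. Counts were tested with edgeR 4.0.16 in R 4.3.3 (filterByExpr, TMM, robust glmQLFit, glmQLFTest) in 1 fit of all 24 libraries and 3 groups, with Benjamini-Hochberg adjustment over 13847 genes. The study's own tool was DESeq2. The SE is the absolute log2 fold change over the square root of F, and 95% intervals are normal intervals from it. Log2 CPM used a prior count of 2. The script was tested on simulated data.

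Named genes were the 9 members, Keap1, Bach1, Mafg and Nfe2l1, the called gene with the largest change of each list in each contrast, the 3 genes most like Nqo1 and Nfe2l2 (mean log2 CPM of at least 3, no predicted genes) and the macrophage markers. Some other genes of the lists were named beside these, where their calls made up a count or changed with a library left out. Markers were summed as CPM for macrophages, lymphocytes, neutrophils, endothelial cells, stellate cells, cholangiocytes and hepatocytes.

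Alternatives were DESeq2 1.42.0, limma 3.58.1 voom, DESeq2 size factors in edgeR, no expression filter, at least 10 counts in every library, only the libraries compared, limma on log2(FPKM + 1) or log2(FPKM + 0.1), the replicate number as a block, and leaving out each library. The p-values measure the spread between animals, and no pair of libraries of a group agreed within sampling noise (lowest chi-square per degree of freedom 12.7).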

Additional observations from a re-analysis of the deposited data

Results flagged for a closer look

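ND+veh replicate 4 stood far from the rest of its group in 2 members. Its Txnrd1 level was 8.26 log2 CPM, where the next ND+veh animal had 7.40 and the lowest 6.83. Its Srxn1 level was 7.99 log2 CPM, where the next ND+veh animal had 6.52 and the lowest 5.23. The gap to the nearest animal took up 0.599 and 0.533 of the range of the group. In all, 27 groups of values were examined (9 members in 3 groups), and about 1 in 20 such groups would be set apart by chance, which is 1.35 groups. The cause was not tested.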

How the results depend on the processing

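Of 913 values of members under alternatives, 821 kept their direction and their side of the threshold, 24 lost a call, 14 gained one and 54 changed sign. Nqo1 in HFD+eRapa against HFD+veh was called in all 34 alternatives (adjusted p 0.000451 to 0.0215). Nfe2l2, Gclc, Gclm and Txnrd1 were called in none. Except where stated above, the cause of a change was not tested. Slc7a11 could not be tested with at least 10 counts in every library, and its low counts limit it.

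Replicate numbers are shared between groups but belong to different animals. Same-numbered libraries had correlations over 0.1, after group means were subtracted, in 5 of 7, 2 of 7 and 2 of 8 pairs for HFD+veh with ND+veh, HFD+eRapa with HFD+veh and HFD+eRapa with ND+veh (mean 0.316, -0.245 and -0.203), so the numbers were not taken to pair the samples. With the replicate block, 1 member, Nqo1, was called in HFD+veh against ND+veh (log2 fold change 1.22, adjusted p = 0.0470) and 1, also Nqo1, in HFD+eRapa against HFD+veh, and 15 of the 64 further genes were called in the latter. Under the block the calls of Osgin1 in the first contrast (-1.30, adjusted p = 0.0762) and of Hmox1 (-1.54, adjusted p = 0.179) and Slc7a11 (-2.94, adjusted p = 0.0988) in the second were not made. The block turned the HFD+eRapa against ND+veh values of Hmox1 to 0.39, Nfe2l2 to 0.023 and Gclm to -0.0023.

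For HFD+veh against ND+veh, 2 members (Nqo1 and Osgin1) were called with DESeq2, with limma voom, with log2(FPKM + 1) and with log2(FPKM + 0.1), and DESeq2 called 14 further genes in place of 9. Leaving out 1 library gave 1 to 3 members and 6 to 17 further genes, the lowest without HFD+veh replicate 6. For HFD+eRapa against HFD+veh, 1 member was called with no expression filter, and 1 to 4 with a library left out, the 1 being Nqo1 without HFD+veh replicate 3, 4 or 6.

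Changes of sign came mostly from values near 0. For HFD+eRapa against HFD+veh, Gclm gave -0.0019 with log2(FPKM + 1) and -0.0018 with log2(FPKM + 0.1), Txnrd1 gave -0.039 and -0.040, and Nfe2l2 gave 0.0073 with no filter. For HFD+eRapa against ND+veh, Gclm gave -0.0035 with at least 10 counts in every library, -0.22 with log2(FPKM + 1) and -0.22 with log2(FPKM + 0.1). Nfe2l2 gave 0.00066 with DESeq2, 0.00066 with DESeq2 size factors, 0.0061 with no filter and 0.00091 with only the libraries compared. In HFD+veh against ND+veh it gave -0.0012 with no filter. With both ND+veh replicate 4 and HFD+veh replicate 6 left out, Nfe2l2 gave -0.0028, 0.082 and 0.079 in HFD+veh against ND+veh, HFD+eRapa against HFD+veh and HFD+eRapa against ND+veh, and in the last contrast Nqo1 gave 0.097 and Txnrd1 0.022.

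With each library left out in turn, the HFD+eRapa against ND+veh value ran from -0.037 to 0.041 for Gclm, from -0.79 to 0.22 for Hmox1, from -0.082 to 0.053 for Nfe2l2 and from -0.66 to 0.073 for Nqo1. That of HFD+eRapa against HFD+veh ran from -0.12 to 0.063 for Nfe2l2. That of HFD+veh against ND+veh ran from -0.083 to 0.11 for Nfe2l2, from -0.14 to 2.41 for Slc7a11 and from -0.12 to 0.63 for Srxn1.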
